A study of Mus musculus with 48 samples.

Results

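The cytosolic ribosomal protein genes were taken by their symbols as the rows named Rps or Rpl followed by a digit, with Rpsa, Rplp0, Rplp1, Rplp2 and Fau, and without pseudogene names (ending in -ps) and the Rps6k kinases. The rule found 93 of the 34586 genes, 39 of the small and 54 of the large ribosomal subunit, and all 93 had at least 1 unique molecular identifier (UMI) in the annotated cells. Of these, 15 were copies, paralogs or genes that only share the name pattern, and 78 bore the name of a single ribosomal protein. Together the 93 genes held 972795 of the 10646725 UMIs of the annotated cells, or 9.14%.

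The UMI counts came from Seq-Well, a nanowell method that reads the 3′ end of mRNA from single cells, in 5 organs (spleen, skin, muscle, lung and joint) of male DBA1/J mice aged 8 to 12 weeks. The 6 mice with collagen-induced arthritis (CIA) were immunized with bovine collagen II in complete Freund's adjuvant and boosted on day 20 in incomplete adjuvant, and the 4 healthy mice received PBS. There were 48 samples, 4 healthy and 6 CIA in each organ except the joint, which had 3 healthy and 5 CIA, and 12096 of 13240 cells carried 1 of 13 deposited cell type labels. The organs were frozen and thawed, the spleen was then strained and the other organs were digested with different enzymes, so that the organ and its dissociation cannot be told apart. CIA mice S1, S2 and S3 had an arthritis score of 8 and came with healthy mouse H3 from the experiment whose sample names hold 2CIA. The other CIA mice S5, S6 and S8, with scores of 4 to 5, 3 to 4 and 2 to 3, came with healthy mice H4, H6 and H7 from the experiment named CIA, so that severity and experiment cannot be told apart among CIA mice.

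The ribosome joins a small subunit, which reads the mRNA, to a large subunit, which links the amino acids, and each cytosolic ribosomal protein is, apart from the stalk proteins, present as a single copy per ribosome. Many of the mRNAs begin with a C followed by a run of pyrimidines, the 5′ terminal oligopyrimidine or TOP motif, through which the mTOR pathway sets their translation. Lymphocytes and dividing epithelial cells are known for a large share of such transcripts, and mature granulocytes for a small one.

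Sequences at the annotated start sites are shown for 8 of these genes, because the TOP motif is the feature that links the genes at the sequence level. Each line runs from 10 bases before the start to 20 bases from it on, on the coding strand, from RefSeq GRCm38.p6. Capitals mark the unbroken run of pyrimidines that begins at the annotated first base with a C and is at least 5 bases long.
Rpl35, chr2:39005112-39005141, minus strand: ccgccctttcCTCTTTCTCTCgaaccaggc
Rplp2, chr7:141447641-141447670, plus strand: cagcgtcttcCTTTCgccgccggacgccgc
Rpl35a, chr16:33056472-33056501, plus strand: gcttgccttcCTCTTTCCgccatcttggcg
Rps21, chr2:180257369-180257398, plus strand: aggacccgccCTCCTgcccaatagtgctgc
Rps19, chr7:24884582-24884611, plus strand: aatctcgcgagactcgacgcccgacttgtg
Rpl41, chr10:128549149-128549178, minus strand: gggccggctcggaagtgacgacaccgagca
Rps4x, chrX:102189372-102189401, minus strand: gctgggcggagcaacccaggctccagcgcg
Rps26, chr10:128626487-128626516, minus strand: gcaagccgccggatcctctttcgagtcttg

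Such a run stood at the annotated first base in 14 of the 58 single-name genes with a start window (24.1%) and in 2.96% of 26957 other genes. A start within 5 bases of such a run was found in 28 of the 58 genes (48.3%) and in 21.1% of the other genes. Rps19 and Rpl41, which lead in UMIs, and Rps4x and Rps26 held no run that begins at the annotated base, although the Rps26 window holds a pyrimidine run a few bases further in. No run at the annotated base says only where these letters lie. None of the 69 mitochondrial ribosomal protein genes with a window held the run at the first base, and 1 of 10 copies and paralogs did. For the other mRNAs that carry a TOP motif or bind the ribosome it was 3 of 11 (27.3%).

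The genes contributed unequally to the 972795 UMIs, and 34 of the 93 held at least 1% of them each. UMIs are counts of 3′ ends and were therefore not divided by transcript length. Rps19, a small subunit protein whose loss causes Diamond-Blackfan anaemia, led with 82705 UMIs, 8.5% of the total. It was followed by Rpl41, the smallest ribosomal protein, with 68508, by Rps14 of the small subunit platform with 64627, by Rpl32 with 55465 and by Rpl35, which lies near the peptide exit tunnel, with 39115. The top 5 genes together held 31.9% and the top 10, among them Rps24, Rplp1, Rplp0 and Rpl37a, held 45.3%. Small subunit genes held 42.5% of the UMIs.

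At the other end stood further proteins of the ribosome. Rps6, the substrate of the S6 kinases, had 468 UMIs, Rpl5 and Rpl11, which carry the 5S RNA into the large subunit, had 323 and 1926, and Rpl3, Rpl10 and Rpl29 had 238, 480 and 75. Rps28 and Rps29 had 521 and 648, and Rpsa, the uS2 protein, had 2879. Fau, whose product is cut into a ubiquitin-like protein and the small subunit protein eS30, had 2673. Rpl3 and Rpl29 were named after their values were seen.

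These counts were set beside the sequence that each gene shares with others. In the last 250 coding bases and the 50 bases after them, every 50-base window was searched in all other annotated transcripts of GENCODE M21 (GRCm38). Of the 93 genes, 88 shared at least 1 window with another gene, with a median of 8 sharing genes and up to 67. Among the 78 single-name genes, the 2 with no shared window had a median of 21893.5 UMIs, the 12 with up to 50% of windows shared had 17211, the 52 with over 50% and up to 90% had 5932.5, and the 12 with over 90% had 715. Spearman's rho between shared windows and UMIs was −0.59 across the 78 genes, given as a description because genes are not independent replicates. Rpl35 and Rps7 went against the pattern, with 99.6% of windows shared and 39115 and 18639 UMIs. In the group with over 90%, Rpl5, Rpl10 and Rps27 had 100% of windows shared.

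**Figure D1:**
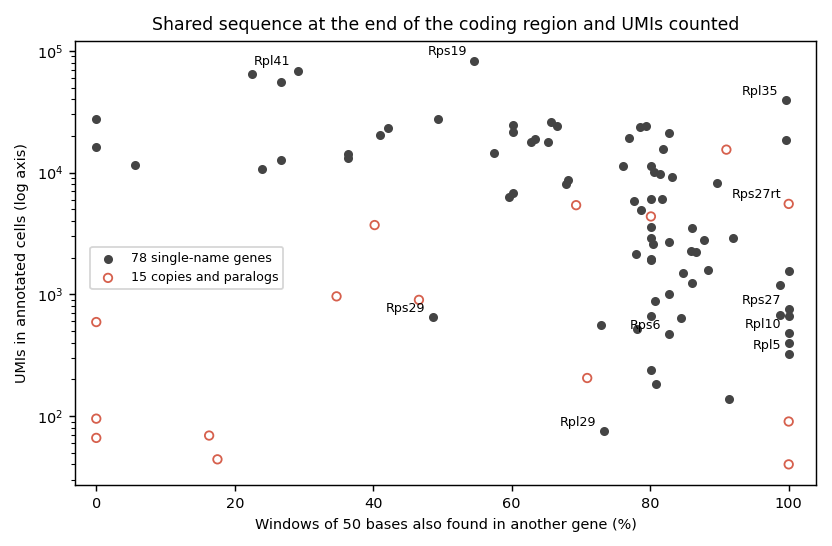
Share of 50-base windows at the end of the coding region that also occur in another annotated gene (x, percent) against UMIs in annotated cells (y, log axis), 1 point per ribosomal protein gene, filled for the 78 single-name genes and open for the 15 copies and paralogs. The 12 filled points above 90% have a median of 715 UMIs and the 2 at 0 have a median of 21893.5, with Rpl35 as an exception at 39115.

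The rows that the rule left out carried a sizeable count. The 267 rows with pseudogene names held 235316 UMIs, or 24.2 for every 100 UMIs on the 93 genes, and 266 of them were detected. Rpsa-ps10 had 12834 UMIs against 2879 for Rpsa, and Rpl9-ps6 had 7995 against 634 for Rpl9. Rps19-ps6 had 20483. Values for a gene with close copies are therefore uncertain, since the counting may have split its reads.

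The copies and paralogs differed in how far their sequences can be told apart, and 2 pairs are shown for this reason, with capitals at the bases that differ within the pair. Positions are counted in the coding sequence of GENCODE M21, and each stretch is exonic. Rpl37 lies at chr15:5116645-5119140 and Rpl37rt at chr5:115102923-115110268, and 293 of 294 coding bases are identical (99.7%). Positions 234 to 263 hold the single difference.
Rpl37: ccgtgagggaacaacGccgaaacccaagag
Rpl37rt: ccgtgagggaacaacAccgaaacccaagag
Rps27 (chr3:90212522-90213651) and its copy Rps27rt (chr9:114982366-114982739) have identical coding sequences over 255 bases, whereas the paralog Rps27l (chr9:66946086-66949516) has 76.1% identity with Rps27. Positions 225 to 254 of this pair hold 8 differences.
Rps27: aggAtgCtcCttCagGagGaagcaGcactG
Rps27l: aggCtgTtcAttTagAagAaagcaAcactA

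Rpl37rt held 15433 UMIs, Rps27rt 5527 and Rps27 itself 754, and the split within these pairs cannot be resolved. Of the paralogs, Rpl22l1 (5396), Rpl36al (4358) and Rps27l (3703) held most UMIs, followed by Rpl7l1 with 961. Rpl3l, the paralog of striated muscle, held 66 UMIs, Rps4l held 44 and Rps12l1 held 40.

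The deposited labels were checked against the study's own marker lists before they were used. The summed marker level was highest in the cells of the same label for 8 of 13 lists. Cells labelled myocytes had a summed level of 82.5 CPM (counts scaled to the total of all UMIs) on their 10 markers, the 7th highest of 13 labels, and CIA mouse S6 gave 1492 of these 1625 cells from its muscle, so they are called cells labelled myocytes. The lists of T cells, monocytes, dendritic cells and neutrophils were higher in NK cells (332 against 202 CPM), macrophages, monocytes and granulocytes, respectively. Cells had a median of 675 UMIs, and 59 of 13164 cell barcodes occurred in more than 1 library.

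The share of UMIs on the 93 genes differed several-fold between cell types and followed the same order in most organs. It was lowest in granulocytes and endothelial cells, intermediate in fibroblasts and macrophages, and highest in lymphocytes. Over the 23 pairs of cell type and organ with at least 3 mice of at least 10 cells, the highest mean was in muscle NK cells with 16.8% ± 3.57 (SD, n = 4 mice) and the lowest in joint granulocytes with 2.07% ± 0.395 (SD, n = 5 mice). Cell types were defined by expression, so these differences are given as a description without a test.

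In muscle NK cells the share was 12% in CIA mouse S8, 16.5% and 18.4% in healthy mice H7 and H6, and 20.4% in CIA mouse S2. Muscle T cells had 14% ± 2.14 (n = 6), spleen T cells 12.7% ± 1.67 (n = 6), spleen NK cells 12.6% ± 1.06 (n = 9), spleen B cells 12.4% ± 1.42 (n = 10) and joint T cells 11.6% ± 2.54 (n = 6). These lymphocyte groups overlapped, and spleen B cells were above spleen T cells in only 3 of 6 mice. Cells labelled myocytes were near the lymphocytes with 12.9% ± 0.337 (n = 3), and basal III cells, the keratinocyte-like cells of the skin, had 10.9% ± 1.35 (n = 10).

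Myeloid and stromal cells were lower. Spleen monocytes had 8.57% ± 1.18 (n = 10), spleen dendritic cells 7.74% ± 1.35 (n = 6), joint macrophages 7.38% ± 1.29 (n = 7) and lung macrophages 5.9% ± 1.1 (n = 10). Fibroblasts lay close together in muscle (7.35% ± 1.33, n = 8), skin (7.31% ± 0.924, n = 9) and joint (6.45% ± 0.833, n = 6). Spleen erythrocytes had 6.59% ± 1.09 (n = 6), and endothelial cells had 5.37% ± 0.776 in joint (n = 5) and 3.61% ± 1.33 in muscle (n = 4).

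Joint granulocytes ranged from 1.58% in CIA mouse S1 to 2.54% in CIA mouse S8, with 1.8% in S5, 2.08% in healthy mouse H3 and 2.37% in S3. Every one of these 5 values was below the lowest value of any mouse for joint macrophages, 5.88%. The 4 granulocyte markers Camp, Ngp, S100a8 and S100a9, which encode granule and calcium-binding proteins, took 38.9% of all granulocyte UMIs. Without these 4 genes in the total, the ribosomal share pooled over granulocytes moved from 2.27% to 3.71%, still below the 4.23% of endothelial cells.

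**Figure D2:**
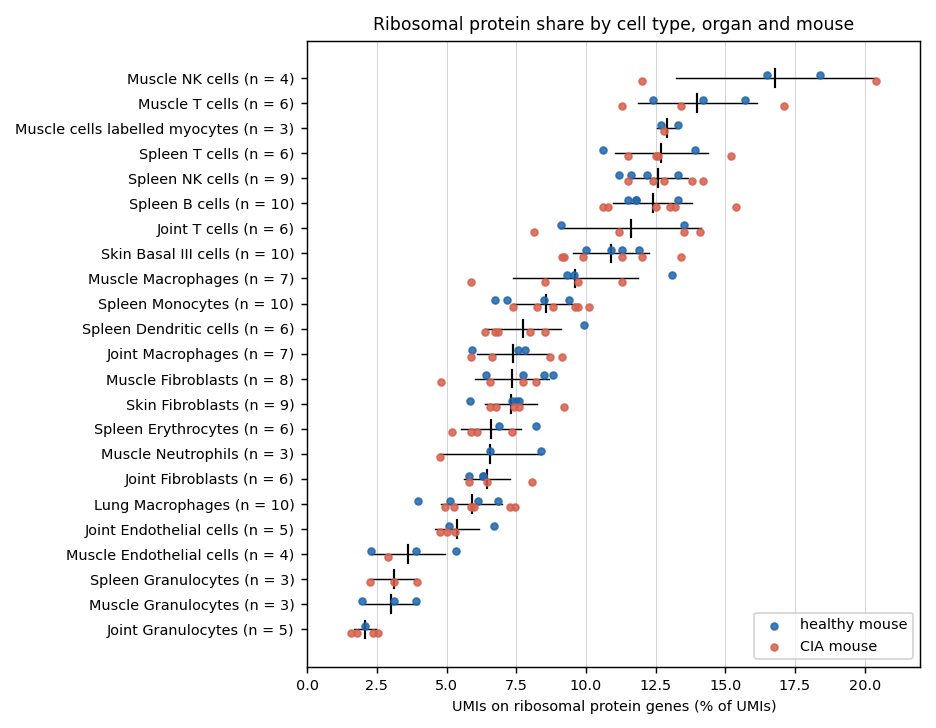
Share of UMIs on the 93 ribosomal protein genes (x, percent) for each of the 23 pairs of cell type and organ with at least 3 mice (y), 1 point per healthy (blue) or CIA (red) mouse, with the mean (vertical line) and SD (horizontal line) over all mice. Granulocytes sit at the bottom with means from 2.07% to 3.1% and muscle NK cells at the top with 16.8%, and healthy and CIA points overlap in every row that holds both groups with 3 mice or more.

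Within single samples, where both cell types share the library, 41 of 48 pairs of cell types had the same order in every mouse. Spleen B cells were above spleen monocytes in 10 of 10 mice, by 3.80 percentage points ± 1.38. Skin basal III cells were above skin fibroblasts in 9 of 9 mice, by 3.78 ± 1.13. T cells were above macrophages in 6 of 6 mice in muscle, by 3.76 ± 1.24, and in 5 of 5 mice in the joint, by 4.70 ± 0.992. Joint macrophages were above joint granulocytes in 5 of 5 mice, by 5.18 ± 1.90. The order varied between mice in the other 7 pairs. Macrophages were above fibroblasts in 5 of 6 mice in joint and in muscle, and joint fibroblasts were above joint endothelial cells in 3 of 4 mice, by 0.698 ± 0.854. In spleen, monocytes were above dendritic cells in 5 of 6 mice, and B, T and NK cells had no common order.

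The make-up of the ribosomal UMIs shifted less than their total, and for 34 genes with at least 1% of them the mean share of the ribosomal UMIs differed at most 3.77-fold between the 23 pairs. Rps9, a small subunit protein at the mRNA entry, showed this largest ratio, with 5.61% ± 2.23 of the ribosomal UMIs in joint granulocytes and 1.49% ± 0.300 in skin basal III cells. Its values in joint granulocytes were 3.23%, 3.54%, 5.62%, 7.67% and 7.99%, all above the highest of the 10 skin values, 1.84%. On the scale of all UMIs, Rps9 was at 768 to 1380 CPM in joint granulocytes and 823 to 2330 CPM in basal III cells, which overlap.

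Rpl35 held 6.45% ± 0.621 of the ribosomal UMIs in skin basal III cells (n = 10) and 2.36% ± 0.674 in muscle granulocytes (n = 3), a ratio of 2.73, and the ranges of 5.79% to 7.74% and 1.66% to 3.00% did not overlap. Rps20 was highest in cells labelled myocytes (2.66% ± 0.286) and lowest in joint granulocytes (0.937% ± 0.572), where mouse S3 had none. Rpl8, next to the catalytic centre of the large subunit, was highest in muscle endothelial cells and lowest in skin basal III cells (1.96% and 0.715%). Rpl22 was highest in spleen erythrocytes (1.67%), and Rps7 was highest in spleen NK cells (2.33%).

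The levels of 3 paralogs were lowest in granulocytes, where the total ribosomal share was also lowest, and were highest in lymphocytes or in skin basal III cells. Rps27l, a known p53 target, was at 861 CPM ± 137 in skin basal III cells (535 to 1000, n = 10) and at 586 ± 125 in skin fibroblasts (444 to 802, n = 9), and both were above the 79.9 ± 42.6 of joint granulocytes (35.1 to 128, n = 5) without overlap. Rpl22l1, the paralog of Rpl22, was highest in muscle NK cells (896 CPM ± 480, n = 4) and next in T cells of muscle (806 ± 169) and spleen (806 ± 289), which did not differ beyond their spread. It was lowest in joint granulocytes (113 ± 42.7, n = 5). Rpl36al was highest in skin basal III cells (759 CPM ± 110) and lowest in joint granulocytes (87.8 ± 46.7).

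In muscle the total share moved with a step of the preparation. The study's sample list records red cell lysis buffer for the muscle of mice H6, H7, S2, S3, S6 and S8 and none for H3, H4, S1 and S5. Over all annotated cells of muscle, the lysed samples had shares from 10.2% to 16.1%, with a median of 11.2%, and the others had 4.51% in H4, 5.07% in S5, 5.57% in S1 and 7.29% in H3. The sets did not overlap, in healthy mice (means of 11% and 5.9%) or in CIA mice (12.3% and 5.32%). This comparison was chosen after the values were seen, and the part of lysis in it was not tested.

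Within fibroblasts, macrophages and T cells the gap was smaller. Muscle fibroblasts had 8.21%, 7.73%, 8.81% and 8.5% in the lysed samples of S6, S2, H6 and H7, and 4.81%, 6.57%, 7.73% and 6.4% in the other samples of S1, S5, H3 and H4, which meet at 7.73%. Muscle macrophages had 10.4% ± 1.79 in 5 lysed samples against 9.32% in H4 and 5.87% in S5, and muscle T cells had 11.3% to 17.1% in 5 lysed samples against 12.4% in H4, within that range. Muscle endothelial cells had 5.34% in the lysed sample of H7 against 2.3% to 3.9% in H3, H4 and S5. Muscle granulocytes had 3.11% to 3.9% in the lysed samples of H6 and H7 against 1.97% in H4. In both cell types the sets, of few mice, did not overlap. NK cells, cells labelled myocytes and B cells, all high in the share, reached 10 cells in muscle only in lysed samples.

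**Figure D3:**
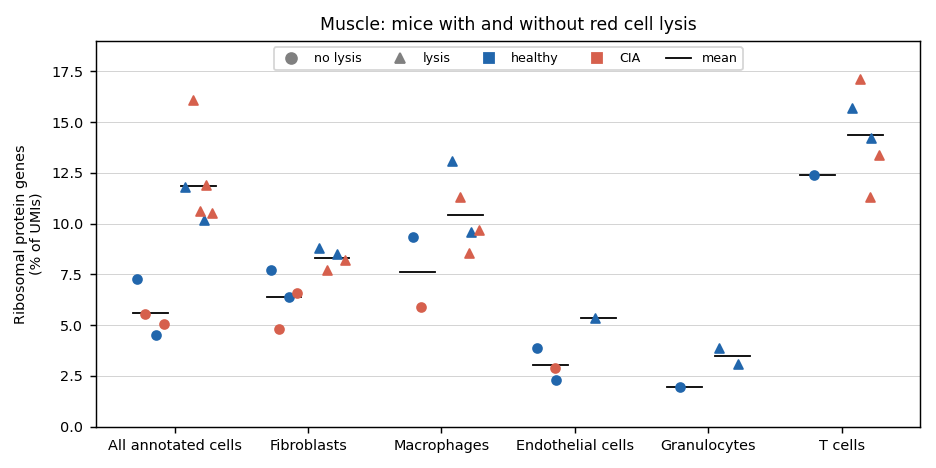
Share of UMIs on ribosomal protein genes (y, percent) in muscle for all annotated cells and 5 cell types (x), 1 symbol per mouse, triangles with and circles without red cell lysis, blue for healthy and red for CIA, and bars at the means. For all cells the 6 triangles sit at 10.2% or above and the 4 circles at 7.29% or below, whereas in T cells the single circle at 12.4% lies within the triangles.

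The main contrast of the study, CIA against healthy, could be asked of 11 pairs of cell type and organ with at least 3 mice in each group. The share of UMIs on the 93 genes was higher in CIA in 7 pairs and lower in 4, with a sign that turned under at least 1 alternative in 8 of the 11. Every difference was smaller than the larger SD of its groups, and the groups overlapped in all 11. Spleen B cells had 12.1% ± 0.793 in 4 healthy mice and 12.6% ± 1.77 in 6 CIA mice, where the lowest (S6, 10.6%) and the highest (S2, 15.4%) were both CIA. Spleen monocytes had 7.95% ± 1.21 and 8.98% ± 1.04, which is 1.03 points higher in CIA. That difference was −0.209 points once mitochondrial, haemoglobin and immunoglobulin UMIs were left out of the total.

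Lung macrophages had 5.52% ± 1.25 and 6.14% ± 1.03, and joint macrophages 7.09% ± 1.05 and 7.59% ± 1.58. Muscle macrophages had 10.7% ± 2.12 and 8.84% ± 2.28, the widest difference at −1.83 points, with healthy values of 9.32%, 9.57% and 13.1% and CIA values of 5.87%, 8.53%, 9.7% and 11.3%. The lowest of these was the CIA mouse without lysis, S5. Joint fibroblasts had 6.15% ± 0.293 and 6.76% ± 1.17, and with the pseudogene rows added the difference of 0.616 points became −0.6. The other 5 differences ranged from −1.03 points in muscle fibroblasts to 0.884 in spleen NK cells.

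Gene by gene, 0 ribosomal protein genes passed an adjusted p of 0.05 between CIA and healthy mice in any of the 11 pairs (edgeR quasi-likelihood test over all genes, Benjamini-Hochberg), with 35 to 73 of the 93 genes tested in a pair. Of all genes tested, 10.3% passed in joint macrophages, 6.51% in lung macrophages, 6.36% in spleen monocytes and 1.68% in joint fibroblasts. It was 0.183% in muscle macrophages, 0.0511% in muscle T cells and 0 in the other 5 pairs. Unadjusted p-values under 0.05 were found for 0 to 2 ribosomal protein genes per pair. Of all genes such p-values were found for 20.9% in joint, 18.6% in lung and 6.06% in muscle macrophages, for 17.8% in joint, 8.88% in skin and 6.36% in muscle fibroblasts, for 17.1% in spleen monocytes and 5.55% in skin basal III cells, and for 3.19%, 2.61% and 6.34% in spleen B cells, spleen NK cells and muscle T cells. DESeq2 called a single ribosomal gene, Rps27rt in joint fibroblasts.

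The medians of the log2 change over the tested ribosomal genes lay between −0.19 in muscle macrophages and 0.14 in joint macrophages, beside medians over all genes of 0.04 and 0.02 in the same pairs. The share of ribosomal genes whose 95% interval lay within a 2-fold change either way ranged from 31.1% in joint fibroblasts to 90% in skin basal III cells. Of all genes tested it was 7.2% and 58.8% in the same pairs. For the remaining ribosomal genes the interval reached past a 2-fold change, so that a change of that size may have been missed.

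The genes with the smallest p-values, chosen for them, show the size of the changes. Their CPM here and in the next paragraph are scaled to the UMIs of the genes tested and by TMM factors. They cannot be compared with the CPM of all UMIs given above. In joint fibroblasts Rps27rt had 554, 1010 and 1470 CPM in healthy mice and 302, 325 and 448 in CIA mice. The groups did not overlap, and the log2 difference was −1.51 ± 0.42 (SE) with an adjusted p of 0.129 in edgeR. Its 50-base windows all occur in other genes, and reads from those genes cannot be told apart from its own. Rps27l had 329, 426 and 471 CPM in healthy joint fibroblasts and 709, 849 and 1480 in CIA, a log2 difference of 1.29 ± 0.40 (adjusted p = 0.156). In these libraries 15.5% of all genes tested were higher in CIA and 9.27% lower without overlap.

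In spleen monocytes Rpl30 ranged from 897 to 1400 CPM in 4 healthy mice and from 506 to 885 in 6 CIA mice (log2 difference −0.69 ± 0.23, adjusted p = 0.109 in edgeR), and 3.73% of all genes were lower there without overlap. In lung macrophages Rplp1, a protein of the stalk that recruits elongation factors, had medians of 2780 and 1860 CPM and overlapping ranges of 2200 to 3120 and 1340 to 2430 (−0.49 ± 0.20, adjusted p = 0.184 in edgeR). Of the other genes of the pathway, which comprised the elongation and initiation factors, the other TOP or ribosome-bound mRNAs, ribosome biogenesis, the control of TOP mRNAs and the mitochondrial ribosomal proteins, Mrpl33 in joint macrophages was the single one called in the 11 pairs. No ribosomal gene was called for a difference in the effect of CIA between organs in macrophages: 0 of 54 to 56 passed the test of the interaction in each pair of organs (edgeR), where 0.127% (lung against joint), 0.496% (lung against muscle) and 1.24% (muscle against joint) of all genes did. Between 1 and 3 ribosomal genes had an unadjusted p under 0.05, beside 11.3% to 15.3% of all genes (13.4% for lung against muscle), and 0 were called with RLE factors or plain library sizes. The 95% interval lay within a 2-fold difference for 20 of 56 ribosomal genes between lung and joint (35.7%), 9 of 55 between lung and muscle (16.4%) and 5 of 54 between muscle and joint (9.26%). Of all genes tested it did for 5.96%, 4.21% and 2.49%. Differences of that size may thus have been missed.

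**Figure D4:**
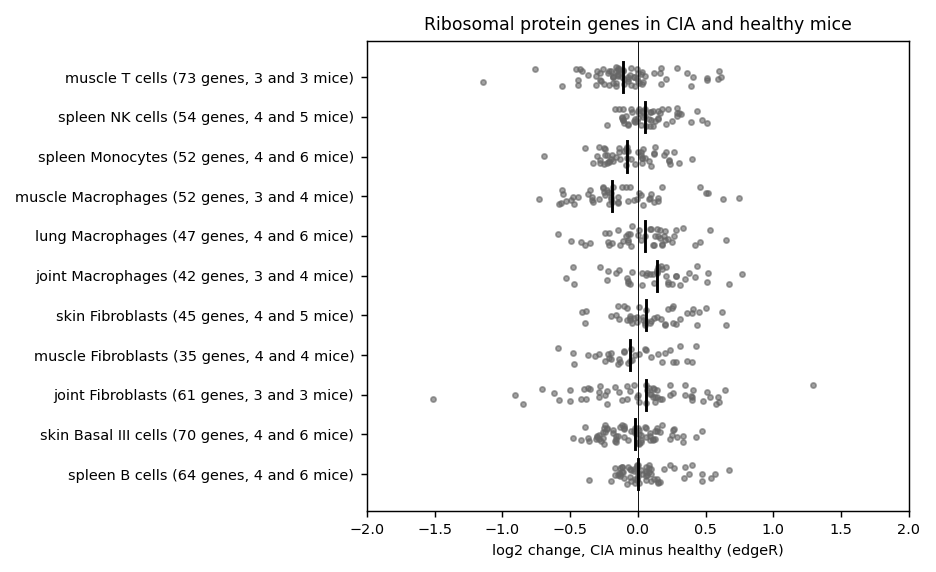
Log2 change of each tested ribosomal protein gene, CIA minus healthy (x, edgeR), in the 11 pairs of cell type and organ (y, with the number of genes and of healthy and CIA mice), 1 point per gene with bars at the medians. The medians lie between −0.19 and 0.14, and joint fibroblasts, with 3 mice in each group, spread widest from −1.51 to 1.29.

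Between organs, ribosomal genes were called more often than all genes only in macrophages of lung against muscle. The comparison, which asked whether macrophages carry the same ribosomal transcripts in each organ, used 10 lung and 7 muscle samples with the disease group as a term. It called 34 of the 52 ribosomal genes tested (65.4%), 33 lower and 1 higher in lung, whereas 32.7% of all 608 genes tested were called (15.8% lower and 16.9% higher). The median log2 difference was −0.68 over the ribosomal genes and 0.05 over all genes. In the fits of CIA against healthy, 47 of the 93 genes passed the filter in lung macrophages and 52 in muscle macrophages. Rps4x, Rpl30, Rpl31, Rpl6, Rpl7a and Rps2 passed there in muscle and not in lung, and Rpl17 in lung and not in muscle. The filter may thus have let some genes in through 1 organ alone. The share of UMIs on the 93 genes was 5.9% ± 1.1 in lung (3.99% to 7.47%) and 9.62% ± 2.25 in muscle (5.87% to 13.1%), with overlap. The called genes included all 3 stalk proteins: Rplp0, at a log2 difference of −0.96 (adjusted p = 0.0035), Rplp1 at −0.77 (adjusted p = 0.00324) and Rplp2 at −0.69 (adjusted p = 0.00655).

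Rps4x, the X-linked gene of the small subunit protein eS4, fell furthest. It had 382, 603, 808, 1100, 1110, 1560 and 1630 CPM in muscle macrophages and 203 to 504 CPM, with a median of 293, in lung macrophages. As between CIA and healthy mice, the CPM of genes tested between organs are scaled to the UMIs of these genes and by TMM factors. The lowest muscle sample, of CIA mouse S3, lay within the lung range, and the log2 difference was −1.69 ± 0.27 (adjusted p = 8.36e-05 in edgeR).

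Rps21 was the only one of the 5 largest falls without overlap (0.987% of all genes were lower without overlap), with 1270 to 2620 CPM in muscle (median 2160) and 339 to 1250 in lung (median 911), a log2 difference of −1.15 ± 0.22 (adjusted p = 0.000584). Rpl8 had medians of 1830 and 779 CPM (−1.39 ± 0.23), Rps26, which lines the mRNA exit channel, 1830 and 715 (−1.22 ± 0.22), and Rpl30 883 and 362 (−1.15 ± 0.28). Rpl30 and Rps4x did not pass the filter in the lung macrophage fit of CIA against healthy, so their calls are no independent support. The only gene that was higher in lung was Rps27rt (439 and 1050 CPM, 0.92 ± 0.31, adjusted p = 0.0286), which has no window of its own and was no longer called with plain library sizes, with the mouse as a block or without any 1 of 6 mice (H3, H6, H7, S2, S5 or S6).

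With plain library sizes, which shift the median of all genes to −0.16, 38 ribosomal genes were called, all lower, with a median of −0.89. Among the most abundant genes, Rpl32 (−0.77) and Rpl41 (−0.65) were lower in lung, while Rps19 had a log2 difference of −0.39 (adjusted p = 0.172), Rps14 of −0.33 (adjusted p = 0.187) and Rpl35 of 0.14 (adjusted p = 0.633). The levels of Fau (0.04) and of the paralogs Rps27l (0.39), Rpl22l1 (−0.02) and Rpl36al (−0.37) did not pass the test either. The log2 difference was negative for 45 of the 52 genes.

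Other genes of the pathway moved in both directions. Of 4 elongation factors tested, Eef2, the translocase, was lower in lung (−0.70) and Eef1a1 had 0.17 (adjusted p = 0.489). Of 10 initiation factors, Eif3f (−1.28) and Eif1 (−0.52) were lower and Eif3a (0.95) and Eif2s2 (0.69) higher. In the fits of CIA against healthy, Eif3f passed the filter in muscle and not in lung macrophages, and Eif3a in lung and not in muscle. The filter may thus have let each in through the organ where it was higher, so the calls of Eif3f and Eif3a are no independent support. Eif1 and Eif2s2 passed in both organs. Gas5, a TOP transcript that hosts small nucleolar RNAs, was lower (−1.02) as 1 of 2 called among 10 other TOP or ribosome-bound mRNAs, the other being Eef2.

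**Figure D5:**
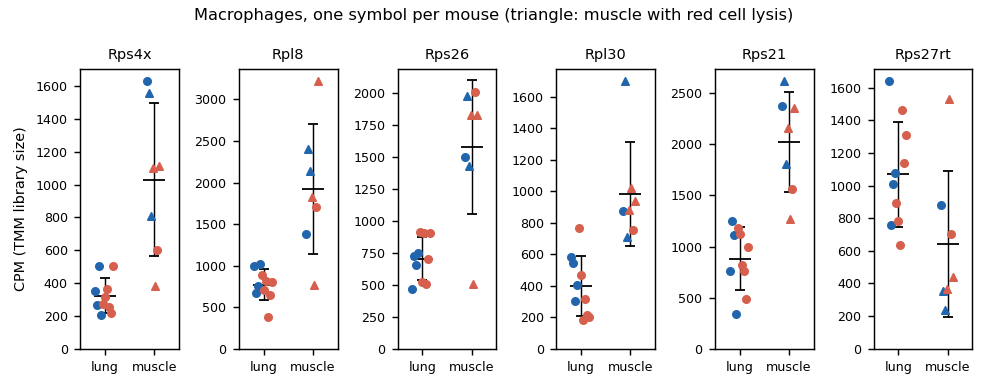
Levels (y, CPM of the genes tested after TMM scaling) of the 6 ribosomal genes named by rule in lung and muscle macrophages, 1 symbol per mouse, blue for healthy and red for CIA, triangles for muscle with red cell lysis, with means and SD. Rps4x, Rpl8, Rps26, Rpl30 and Rps21 are lower in lung, Rps21 without overlap (339 to 1250 against 1270 to 2620), and Rps27rt is higher.

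Several properties of the libraries moved with this comparison. Mitochondrial UMIs were 11.9% of the total in lung macrophages (9.09% to 13.8%) and 6.54% in muscle macrophages (2.7% to 11.6%), and the median UMIs per cell averaged 577 and 852. Granulocyte markers, none of them at 0 in either organ, had medians of 1990 CPM in lung (356 to 14700) and 10800 in muscle (394 to 39600). Their part in the result was not tested. With libraries under 12% mitochondrial UMIs alone, 4 ribosomal genes were called lower (Rps4x, Rps26, Rps21 and Rpl23), with a median of −0.57. With the muscle samples without lysis alone, H4 and S5, it was 2 (Rps4x, −1.66, adjusted p = 0.0223, and Rps26, −1.38, adjusted p = 0.0101), with a median of −0.34. With the lysed muscle samples alone it was 37. In healthy mice alone 17 were called, 15 of them lower. Fewer samples enter each of these fits, and their counts over all genes are not given here. Whether the changes in count were particular to ribosomal genes is therefore not shown.

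Lung macrophages were also compared with joint macrophages (7 samples). Of 52 ribosomal genes tested, 5 were called, all lower in lung (9.62%), where 17.2% of all genes were called, 8.13% lower and 9.11% higher. Rps4x had a median of 730 CPM in joint (192 to 1120) and 283 in lung (197 to 486), a log2 difference of −1.28 ± 0.30 (adjusted p = 0.00355 in edgeR). Rps26 (−0.74), Rpl26 (−0.56), Rpl14 (−0.50) and Rps24 (−0.49) followed, with adjusted p-values from 0.0255 to 0.0358 in edgeR, and every group overlapped.

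With the mouse as a block, Rps4x alone was called (−1.26, adjusted p = 0.0399). The count was 3 without mouse H3 and 1 without S1, S5 or S6, and in the fit without S1 Rps4x was not among the genes tested. In the fits of CIA against healthy, Rps4x passed the filter in joint macrophages and not in lung macrophages. Granulocyte markers had a median of 33200 CPM in joint macrophages, far above the 1990 of lung, and their part was not tested. Between muscle and joint macrophages 0 of 51 ribosomal genes were called by edgeR or DESeq2 and 2 had an unadjusted p under 0.05, beside 0.236% and 13.5% of all genes. The median difference was 0.26 towards muscle, beside −0.01 over all genes. Among healthy mice alone Rplp0 was called higher in muscle. These 3 comparisons share samples.

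Fibroblasts showed a smaller and mixed pattern. Between skin (9 samples) and joint (6 samples), 2 of 55 ribosomal genes were called, both lower in skin (3.64%), beside 28.8% of all genes (15% lower and 13.8% higher). Rps4x had 607 to 1020 CPM in joint and 178 to 501 in skin, without overlap (2.9% of all genes were lower without overlap), at a log2 difference of −1.15 ± 0.25 (adjusted p = 0.00242 in edgeR). Rps21 had medians of 1880 and 1330 CPM with overlap (−0.52 ± 0.18, adjusted p = 0.0412). With the mouse as a block Rps4x was called (−1.49, adjusted p = 0.0126) and Rps21 was not. In healthy mice alone neither passed (Rps4x −1.27, adjusted p = 0.0601), and under 12% mitochondrial UMIs neither did (Rps4x −0.94, adjusted p = 0.0806). With plain library sizes, which shift the median of all genes to 0.16, Rps4x stayed lower and Fau, Rpl34 and Rps19 were called higher. Mitochondrial UMIs averaged 12% in skin fibroblasts and 6.87% in joint fibroblasts, and their part was not tested.

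Some genes that build the ribosome or start translation were higher in skin. All 4 tested of 25 listed genes of ribosome biogenesis were called higher in skin than in joint fibroblasts, namely Gnl3 (1.62), Nop56 (1.37), Nop58 (0.95) and Ncl, the nucleolar protein nucleolin (0.94), which was named after its values were seen. Of 9 tested of 24 listed initiation factors 4 were called higher and 0 lower, where 13.8% of all genes were called higher. They were led by Eif2s2 with 465 to 1080 CPM in joint and 1770 to 4020 in skin (log2 difference 1.80 ± 0.24, adjusted p = 2.32e-05 in edgeR). Mrpl33, of the mitochondrial ribosome, was lower (−0.82).

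Between skin and muscle (8 samples), 8 of 45 ribosomal genes were called (17.8%), 3 higher and 5 lower in skin, beside 37% of all genes (19.1% higher and 17.9% lower). Rpl13a (0.72 ± 0.22), Rps27l (0.65 ± 0.23) and Rpl34 (0.57 ± 0.18) were higher in skin. Among the lower genes were Rpl8 (−0.97 ± 0.23), Rps15 (−0.88 ± 0.26) and Rps20 (−0.71 ± 0.20). Rpl8 showed the smallest adjusted p, 0.0027 in edgeR, with 1520 to 3710 CPM in muscle and 440 to 1790 in skin, which overlap. With RLE factors the split was 4 higher and 4 lower.

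With the mouse as a block, 2 were called, Rpl13a and Rpl34, both higher. The count was 13 with lysed muscle samples alone and 1, Rpl34, with the samples without lysis. It was 5 without mouse S5, S6 or S8. Of 4 tested of the 25 listed biogenesis genes, Gnl3 and Nop56 were called higher in skin. In the fits of CIA against healthy, 0 of the 25 passed the filter in muscle fibroblasts and 3 did in skin fibroblasts. The filter may thus have let these genes in through the skin samples, so the calls are no independent support. Between muscle and joint fibroblasts 0 of 59 ribosomal genes were called by edgeR or DESeq2 and 6 had an unadjusted p under 0.05, beside 3.2% and 19.2% of all genes.

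Rps4x was the member called lower in lung macrophages against both muscle and joint and in skin fibroblasts against joint. It was not among the 8 genes called between skin and muscle fibroblasts. Rps26 was also called lower in lung macrophages against both organs. The comparisons that called Rps4x share the joint mice or the lung samples and are not independent. In the fits of CIA against healthy, Rps4x did not pass the filter in lung macrophages or skin fibroblasts. It passed in joint and muscle macrophages. The filter may thus have let Rps4x in through the organ where it was higher, so its calls are no independent support. Of all UMIs without TMM scaling, Rps4x was at 97.7 to 298 CPM in lung macrophages, and its mean was highest in muscle NK cells (1140 CPM ± 436) and lowest in joint granulocytes (51.7 ± 31.7). Of its 50-base windows, 77.7% also occur in another gene, mostly pseudogenes, so that part of its reads may have been counted elsewhere in every organ.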

How the data were processed

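Single-cell RNA-seq was measured by Seq-Well in 48 samples. The deposited values are raw UMI counts per gene and cell with the authors' cell type labels, made per the paper's methods with bcl2fastq, Picard, Drop-seq tools and STAR on GRCm38, while the submitters' processing notes list GRCh38 and mm9. Reads of near-identical genes cannot be told apart, so counts may be split between copies. Organ samples held 17748 to 1645734 UMIs in 30 to 1989 annotated cells, and no doublets were removed here.

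Counts were summed per mouse, organ and cell type where at least 10 cells were present, and pairs with 3 mice per group were tested. The mouse was the replicate, so p-values measure the spread between these mice. Genes were filtered with filterByExpr and tested over the whole table by edgeR 4.0.16 (quasi-likelihood, TMM) in R 4.3.3, with Benjamini-Hochberg adjustment at 0.05; the disease group was a term between organs. DESeq2 1.42.0 was an alternative. The edgeR fits were tested on simulated data. Shares are UMIs on the 93 genes over all UMIs and were given no test. Python 3.11.15, pandas 2.3.3, scipy 1.17.1, Biopython 1.88 and matplotlib 3.10.9 were used. The study's per-cell model was not repeated.

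Same-mouse samples of different organs come from the same animal, and their deviations correlated between −0.15 and 0.14 over 4 to 7 pairs per organ pair. Named were all ribosomal genes called where at most 10 were, otherwise the 5 largest rises and falls, the 10 with most UMIs, the 6 most variable between cell types, the paralogs and a list by role, and up to 3 pathway genes in each direction. Some genes that this rule names are not reported here. The members and lists were chosen with earlier results of these data known.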

Additional observations from a re-analysis of the deposited data

Results flagged for a closer look

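In 4 healthy mice, the share of UMIs on ribosomal protein genes in spleen B cells was 13.3% in mouse H3 and 11.5% to 11.8% in the other 3, a gap of 0.855 of the range. In skin fibroblasts of 4 healthy mice, H7 had 5.84% and the other 3 had 7.36% to 7.58%, a gap of 0.873 of the range. Both exceed Dixon's critical value, which chance passes in about 1 in 20 groups, and 2 of 30 groups tested did so.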

How the results depend on the processing

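Of 189 recomputed counts of ribosomal genes between CIA and healthy mice, 188 stayed at 0, and DESeq2 called 1 gene in joint fibroblasts. None of the 39 recomputed interaction counts changed. The share differences kept their size within the spread in 168 of 170 recomputations; with pseudogene rows joint fibroblasts moved to −0.6 points, and without mitochondrial, haemoglobin and immunoglobulin UMIs spleen monocytes moved to −0.209. The sign turned in 17 recomputations, in 8 of 11 pairs, so the directions are not stable. With pseudogene rows joint macrophages went from 0.497 to −0.477 points, and in experiment CIA alone to −0.183, where lung macrophages went from 0.62 to −0.253. Muscle fibroblasts went from −1.03 to 0.322 with at least 20 cells, and muscle T cells from −0.198 to 0.669 as a mean over cells. Leaving out 1 mouse turned spleen B cells (S2, −0.0796), joint fibroblasts (S3, −0.0319), joint macrophages (H3, −0.101; S5, −0.0177), skin basal III cells (H3, S6 or S8, 0.0914 to 0.129) and muscle T cells (S6, 0.0601; H6, 0.623; and S3, higher still).

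Counts between organs moved by over 1.5 times in 37 of 120 recomputations, and no named gene changed direction, while 140 of 417 recomputed named genes lost their call. For lung against joint macrophages, 9 were called by DESeq2, 0 without a filter, 3 with at least 20 cells, 0 in healthy mice alone, 1 under 12% mitochondrial UMIs and 1 with the mouse as a replicate block. For lung against muscle macrophages it was 2 without a filter, 17 in healthy mice alone, 4 under 12% mitochondrial UMIs and 2 with unlysed muscle alone. Muscle against joint macrophages gave 1 in healthy mice alone. For skin against joint fibroblasts it was 4 with plain library sizes, 1 with TMM factors set without the members, 0 in healthy mice alone, 0 under 12% mitochondrial UMIs and 1 with the block. For skin against muscle fibroblasts it was 1 without a filter, 1 with at least 20 cells, 1 in healthy mice alone, 5 under 12% mitochondrial UMIs, 13 with lysed and 1 with unlysed muscle alone and 2 with the block. Fewer samples or cells enter several of these fits, and for the rest the cause was not tested. The counts over all genes are not given beside these, so a change particular to ribosomal genes is not shown. The block moved no other count by over 1.5 times.

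Leaving out 1 mouse at a time gave 1 to 6 calls for lung against joint macrophages, 23 to 36 for lung against muscle, 1 to 3 for skin against joint fibroblasts and 5 to 10 for skin against muscle. In skin against joint fibroblasts only Rps4x was called without H4, H6, H7, S1, S3, S5 or S8. The mitochondrial and lysis alternatives were chosen after seeing the data. With a median of 675 UMIs per cell, 20 to 58 of the 93 genes were too low to test in a CIA comparison.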
